A study of Mus musculus with 10 samples.

Results

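The 9 genes described here are Traf1, Traf2, Traf3, Traf4, Traf5 and Traf6, which encode adaptor proteins of the TNF receptor associated factor (TRAF) family, and Tnfaip3, Tnip1 and Cyld, which encode inhibitors of NF-kB signalling. They were chosen as a list of names, with no threshold on any value but with earlier results of these data known. All 9 were found among the 17658 genes of the deposited table. The study measured RNA of B cells from spleen and lymph node of C57BL/6 mice aged 10 weeks, enriched magnetically by removing other cells, to look for genes that anti-IgM induces differently in the genotypes. Wild-type mice were Nr4a1+/+ and knockout mice Nr4a1-/-. Nr4a1 encodes Nur77, an orphan nuclear receptor that is switched on by the antigen receptor. Of each genotype, 1 library came from cells without an agent and 4 libraries, lettered A to D, from cells given 10 µg/mL anti-IgM, which clusters the antigen receptor on the cell surface, over 2 hours. No culture time is given for the cells without an agent. An effect of 2 hours in culture therefore cannot be told apart from that of anti-IgM in the changes below, and was not tested. The 10 libraries form 4 groups, and those given as Nr4a1-/- are named KO-labelled below. The labels do not say whether a letter stands for a separate mouse or describe the knockout allele further, so p-values measure the spread between these libraries, which may be technical.

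TRAF proteins bind the cytoplasmic tails of TNF receptor family members such as CD40 and the BAFF receptor, or the adaptors of Toll-like receptors, and hand the signal on to the kinases that release NF-kB. TRAF2, TRAF3 and the ubiquitin ligases cIAP1 and cIAP2 together keep the NF-kB inducing kinase at a low level in resting B cells, and TRAF6 builds ubiquitin chains that recruit the IkB kinase complex, also downstream of the antigen receptor. Tnfaip3 encodes A20, a ubiquitin-editing enzyme that is itself an NF-kB target and acts as negative feedback; Tnip1 encodes ABIN1, which binds A20 and ubiquitin chains, and Cyld encodes a deubiquitinase that takes down the same chains.

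Levels are FPKM (fragments divided by transcript length and by the library total), a unit that allows levels of different genes to be compared. The summed FPKM of a library ran from 557214 to 571784 after anti-IgM and was 595500 and 674961 in the unstimulated KO-labelled and wild-type libraries. The absolute depth is unknown; relative depth, recovered from 82 genes of few reads, ran from 0.912 in the unstimulated wild-type library to 1.07 in stimulated wild-type library B. Nr4a1, the targeted gene, did not separate the libraries by label: it was at 126 FPKM in both unstimulated libraries, at 744 to 856 FPKM in the stimulated wild-type libraries and at 660.2 to 760.0 FPKM in KO-labelled ones, so directions between genotypes below hold for the labels given. After anti-IgM it was called lower in KO-labelled libraries (log2 difference -0.20, limma adjusted p = 0.0432), with overlapping groups, and the call was lost in 10 of 18 alternatives (adjusted p from 0.0196 to 0.158 over all 18), 6 of which left out 1 library (wild-type A, C or D, KO-labelled A, B or D). Of 10 B cell markers, 8 were found in the table, with Cd79a the most abundant. Their summed level was 4358 and 4149 FPKM before and 1598 to 1713 FPKM after anti-IgM. The 8 T cell markers summed to at most 2.18 FPKM in any library and 5 of 6 NK cell markers to at most 2.50 FPKM. The 9 myeloid markers summed to 76.8 and 92.4 FPKM in the unstimulated wild-type and KO-labelled libraries, to 40.6 to 141 FPKM in stimulated wild-type libraries and to 24.6 to 104 FPKM in KO-labelled ones, with Lyz2 the most abundant. For 6 of 7 erythroid markers the sums were 123 and 40.0 FPKM before stimulation, and 13.4 to 66.5 and 7.79 to 38.0 FPKM after it. The 6 plasma cell markers summed to 201 and 205 FPKM before, and to 1046 to 1111 and 1132 to 1191 FPKM after anti-IgM. Irf4 was the most abundant, with a mean of 858 FPKM over the 10 libraries, so these sums mostly follow that 1 gene. No marker in the table was at 0 in all libraries. The part of other cells in the results below was not tested. In bulk RNA, fewer cells of a type and less RNA per cell cannot be told apart.

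The genes lie on 6 chromosomes of the mouse (RefSeq positions on GRCm38.p6; the submitters' processing notes name the same assembly as mm10). Traf1 is at chr2:34941750-34961812, Traf2 at chr2:25517982-25546940, Traf6 at chr2:101678420-101701668, Traf3 at chr12:111166321-111267155, Traf4 at chr11:78158423-78165579 and Traf5 at chr1:191997203-192092599. Tnfaip3 is at chr10:19000910-19015410, Tnip1 at chr11:54910787-54962956 and Cyld at chr8:88696878-88751946. In GENCODE M21 the exons of 8 of the 9 genes overlap no other gene. Exons of Traf5 overlap the microRNA gene Mir3473c and the antisense gene Gm26879, and since the use of strand in counting is not given in the sources used here, reads from Traf5 and its antisense partner cannot be told apart.

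The RefSeq promoter windows of the 9 genes, 250 bases before to 50 bases after a transcript start, were searched on both strands for 3 forms of the NF-kB binding motif, because Tnfaip3 and several of its neighbours in the pathway are known NF-kB targets. There were 10 windows, 1 for each gene and a second for Tnfaip3. The NF-kB consensus, searched by its name, was present in 4 of the 10 windows, against 4.51% of all 32851 windows. It occurred in the windows of Tnfaip3, Tnip1, Cyld and Traf3. A second form, GGG followed by any 2 bases and TTTCC, was present in 4 of the 10 windows, those of Tnfaip3, Cyld, Traf3 and Traf2, against 1.63% of all. The loose form, GGG followed by any 5 bases and CC, which contains every match of the other forms, was in 9 of the 10 windows, those of 8 genes, and in 50.8% of all. The stretches below show the consensus matches in capitals, with Traf1, whose window held no match to any of the 3 forms, for contrast. They read 5′ to 3′ on the strand of the gene; for Tnfaip3, Cyld and Traf3 only 30 bases around a match are given, and for Tnip1 and Traf1 the 234 and 210 bases of the window that lie before the gene record. The Tnfaip3 stretches lie before the RefSeq position of the gene given above. The gene record used to cut them reached further, over 247 of the 250 bases before the transcript start. The Cyld stretch spans the start of its gene and the Traf3 stretch lies just inside its gene.
Tnfaip3, chr10:19015516-19015545: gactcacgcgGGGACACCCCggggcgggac
Tnfaip3, chr10:19015411-19015440: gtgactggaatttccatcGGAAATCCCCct
Tnip1, chr11:54962957-54963190: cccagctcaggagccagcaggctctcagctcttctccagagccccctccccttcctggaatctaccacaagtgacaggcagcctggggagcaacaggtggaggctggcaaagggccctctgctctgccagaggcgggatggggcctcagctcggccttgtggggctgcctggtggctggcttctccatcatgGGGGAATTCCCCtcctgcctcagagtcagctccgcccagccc
Cyld, chr8:88696863-88696892: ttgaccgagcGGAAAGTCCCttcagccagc
Traf3, chr12:111166340-111166369: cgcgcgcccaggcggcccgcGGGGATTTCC
Traf1, chr2:34961813-34962022: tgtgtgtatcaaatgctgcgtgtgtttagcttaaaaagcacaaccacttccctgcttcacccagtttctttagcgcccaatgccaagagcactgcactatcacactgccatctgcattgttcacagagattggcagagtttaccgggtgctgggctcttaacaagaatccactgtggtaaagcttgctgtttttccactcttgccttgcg
A match is a description of these letters, and its absence from a window says nothing of sites elsewhere.

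All 9 genes were expressed in every library, between 9.63 FPKM (Traf5 in stimulated wild-type library A) and 255 FPKM (Tnfaip3 in stimulated KO-labelled library C), so none entered the tests through 1 group alone. In the unstimulated wild-type library the order from high to low was Traf1, Traf5, Tnfaip3, Cyld, Traf2, Tnip1, Traf6, Traf3 and Traf4, spanning 41.3 to 10.6 FPKM. After anti-IgM, wild-type means were led by Tnfaip3 and Traf1, followed by Traf6, Traf4, Traf2, Tnip1, Traf3 and Cyld, and Traf5 came last. The ranges of the 4 libraries overlapped for the neighbours Traf4 and Traf2, Traf2 and Tnip1, and Traf3 and Cyld, so their order is not resolved. In the KO-labelled libraries the order after anti-IgM was the same except that Traf4 stood above Traf6. The ranges overlapped for each pair of neighbours from Traf6 through Traf2, Tnip1 and Traf3 to Cyld.

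**Figure D1:**
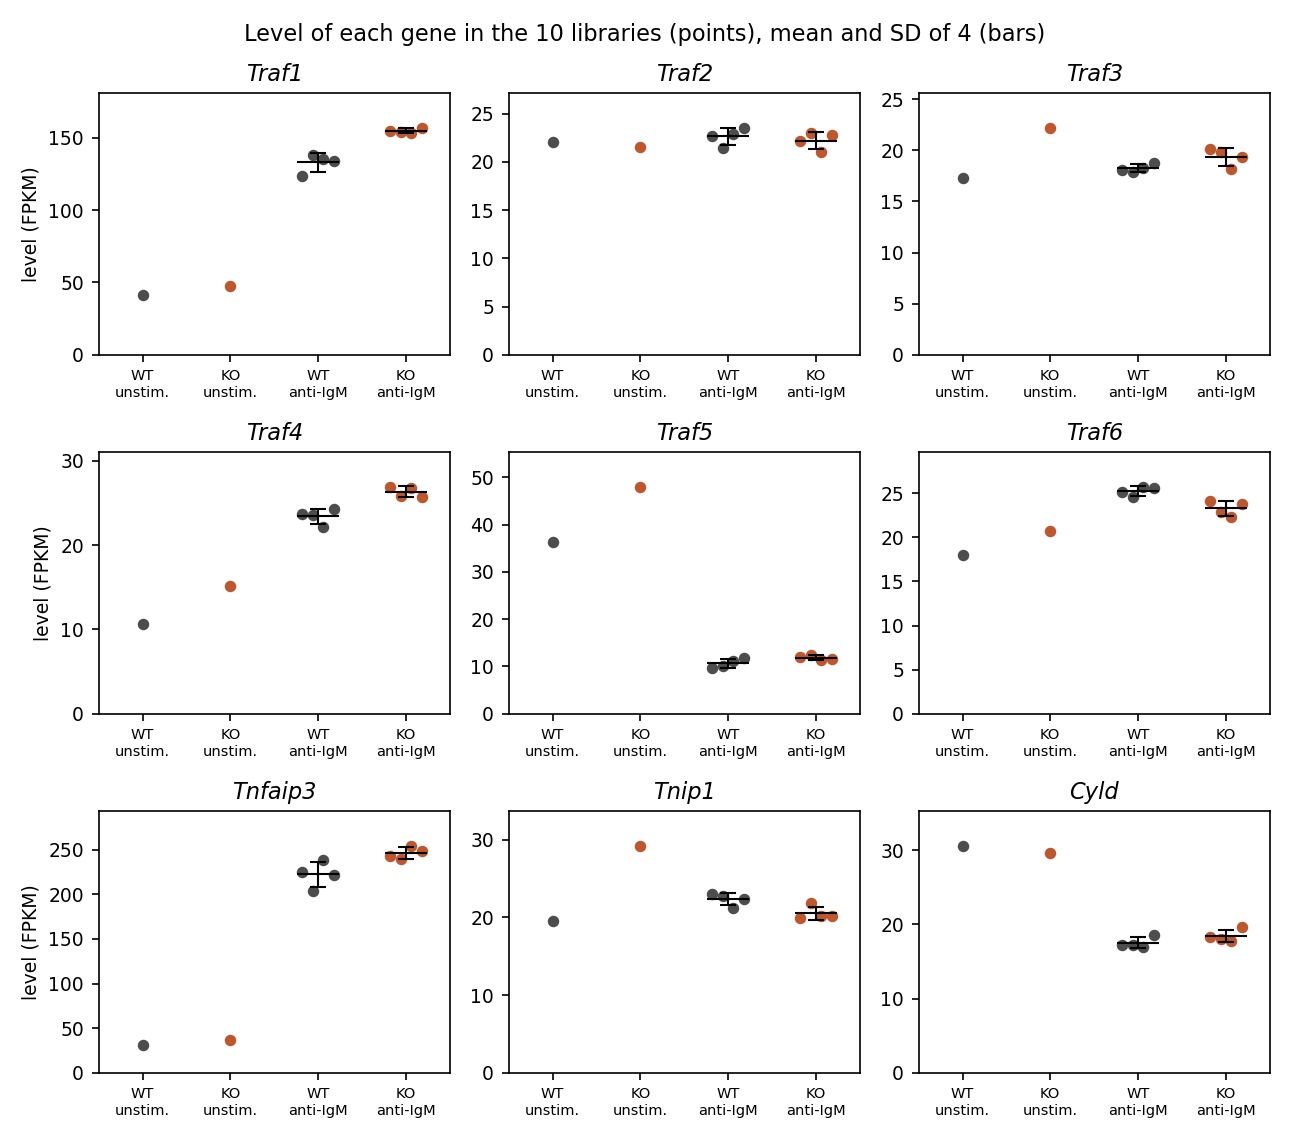
Level of each gene in FPKM (vertical axes, starting at 0 and scaled per gene) in the unstimulated library and the 4 anti-IgM libraries of wild type (WT, grey) and KO-labelled (KO, orange); points are libraries, and bars give the mean and SD of 4. Tnfaip3 and Traf1 stand far above their unstimulated levels after anti-IgM, and Traf5 and Cyld stand below theirs in every stimulated library.

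The change with anti-IgM was fitted in limma over the 10 libraries with a genotype term, on the scale log2(FPKM + 1), which understates changes of low genes. Each unstimulated group is 1 library, so the fit takes the unstimulated libraries to vary like the stimulated ones. A call needed a limma p under 0.05 after Benjamini-Hochberg adjustment over the 10225 genes tested, and a minimum size of 1 for the log2 change; a gene is said to rise or fall where it met the first of these. Tnfaip3 and Traf1 were called higher and Traf5 lower, 3 of the 9 genes, where 20.3% of all genes tested were called (7.94% higher and 12.4% lower). At an adjusted p under 0.05 without a minimum size, 4 of the 9 were higher (31.2% of all genes) and 2 were lower (47.7%), where 78.9% of all genes passed. For the same 6 genes the 8 stimulated libraries did not overlap with the 2 unstimulated ones, which held for 72.9% of all genes (28.6% higher and 44.3% lower). The median log2 change was 0.038 for the 9 genes and -0.17 for all genes tested. Rescaled to TPM, the median of all genes was -0.047; by median-of-ratios scaling it was 0.035 and by quantile normalization 0.0081, so changes near 0 are to be read against that shift. Tnfaip3 ranked 23rd of 10225 from the top by log2 change and Traf1 187th, and Traf5 ranked 229th from the bottom.

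Tnfaip3, the gene of the feedback enzyme A20, began at 31.4 FPKM in unstimulated wild-type cells and at 36.6 FPKM in unstimulated KO-labelled ones. After anti-IgM, wild-type libraries A to D reached 225, 204, 238 and 222 FPKM. KO-labelled libraries A to D reached 243, 239, 255 and 248.6 FPKM. Every stimulated library lay far above both unstimulated ones, and the lowest KO-labelled library lay just above the highest wild-type library. The log2 change with anti-IgM was 2.75 (SE 0.0521, limma adjusted p = 1.99e-11), a 7.09-fold level in wild type and a 6.72-fold level in the KO-labelled libraries. It took Tnfaip3 from percentile 74.2 of tested genes in unstimulated wild-type cells to percentile 97.0 in stimulated ones.

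Traf1 encodes a TRAF protein that lacks the RING domain of its relatives and works together with TRAF2; it is a known NF-kB target. Before stimulation, wild-type cells had 41.3 FPKM of it and KO-labelled cells had 47.3 FPKM. Stimulated wild-type libraries, in the order A to D, were at 124, 138, 136 and 134 FPKM, and KO-labelled ones at 155, 154, 153 and 157 FPKM. The 4 KO-labelled libraries were tightly grouped and all lay above the wild-type libraries. The log2 change with anti-IgM was 1.68 (SE 0.0424, limma adjusted p = 7.64e-11), or 3.22-fold in wild type and 3.27-fold in the KO-labelled libraries.

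Traf5 encodes an adaptor that binds CD40 and related receptors and, in this set, moved the other way. Before stimulation its level was 36.4 FPKM in wild-type and 48.0 FPKM in KO-labelled cells. After anti-IgM the level was 9.63, 10.1, 11.2 and 11.7 FPKM in wild-type libraries A to D and 12.1, 12.4, 11.3 and 11.6 FPKM in KO-labelled ones. All 8 stimulated libraries lay below both unstimulated ones, and the 2 genotypes overlapped. Traf5 fell by 1.81 on the log2 scale (SE 0.0775, limma adjusted p = 2.71e-09), to 29.3% of the unstimulated level in wild type and to 24.6% in the KO-labelled libraries.

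Traf4 encodes a family member best known from epithelia and development. Its level rose from 10.6 FPKM to 23.7, 23.5, 22.1 and 24.3 FPKM in wild-type libraries A to D, and from 15.2 FPKM to 26.9, 25.9, 26.8 and 25.7 FPKM in KO-labelled ones. The groups did not overlap in either direction of comparison: stimulated libraries were above unstimulated ones, and KO-labelled libraries above wild-type ones. The log2 change with anti-IgM was 0.91 (SE 0.0663, limma adjusted p = 1.94e-07), under the minimum size of 1. That minimum was passed on the TPM scale (1.09), by median-of-ratios scaling (1.13), by quantile normalization (1.09) and without the unstimulated KO-labelled library (1.07).

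Cyld, the deubiquitinase gene, went from 30.6 FPKM to 17.3, 17.2, 16.9 and 18.6 FPKM in wild-type libraries A to D, and from 29.6 FPKM to 18.3, 18.03, 17.8 and 19.7 FPKM in KO-labelled ones. The stimulated level was 57.2% of the unstimulated one in wild type and 62.3% in the KO-labelled libraries, and the genotypes overlapped. Cyld fell by 0.71 on the log2 scale (SE 0.0536, limma adjusted p = 2.58e-07), less than the minimum size. Traf6, the ligase shared with Toll-like receptor signalling, went from 17.95 FPKM to 25.2, 24.6, 25.8 and 25.6 FPKM in wild-type libraries A to D and from 20.7 FPKM to 24.1, 22.9, 22.3 and 23.8 FPKM in KO-labelled ones. All stimulated libraries lay above both unstimulated ones, and the KO-labelled ones by less. The log2 change of Traf6 was 0.32 (SE 0.0637, limma adjusted p = 0.000780).

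For Traf2, Traf3 and Tnip1 no change with anti-IgM passed the test on the deposited scale. Traf2 was between 21.0 and 23.6 FPKM in all 10 libraries, with a log2 change of 0.038 (95% interval -0.068 to 0.14, limma adjusted p = 0.481); read against the shift of all genes, its log2 change was 0.199 after rescaling to TPM (limma adjusted p = 0.0159) and 0.264 with median-of-ratios scaling (0.000281). Traf3, the adaptor that holds back the alternative NF-kB pathway, had a log2 change of -0.059 (95% interval -0.19 to 0.077, limma adjusted p = 0.395), and its sign was positive in each of the 3 other scalings, from 0.039 to 0.165; with median-of-ratios scaling its adjusted p was 0.0130. Tnip1 had a log2 change of -0.15 (95% interval -0.40 to 0.099, limma adjusted p = 0.237), and its sign was positive after rescaling to TPM (0.0048) and with median-of-ratios scaling (0.074). Its 2 genotypes moved in opposite directions, with values given below.

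**Figure D2:**
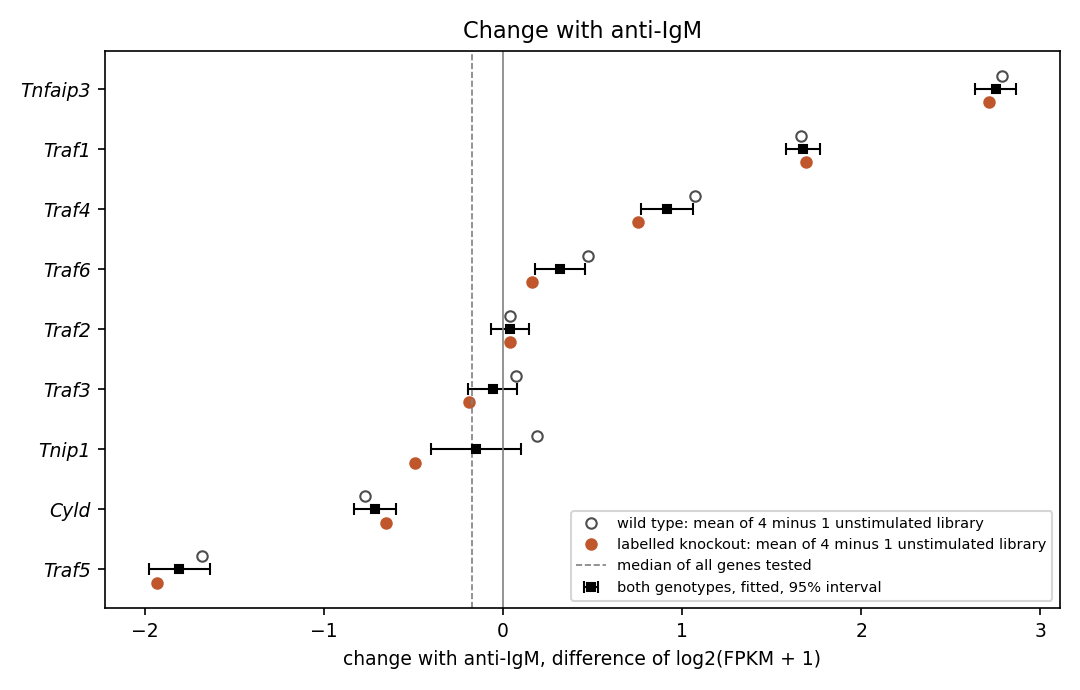
Change with anti-IgM of each gene as a difference of log2(FPKM + 1) (horizontal axis): black squares give the value fitted over 10 libraries with its 95% interval, open circles the wild-type response and filled circles the response of the KO-labelled libraries, each against 1 unstimulated library; the dashed line marks the median of all genes tested, -0.17. Tnfaip3 (2.75) and Traf1 (1.68) lie at one end and Traf5 (-1.81) at the other, and the circles are farthest apart for Tnip1.

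Shares of the TRAF transcripts were taken within each library, since multiplying a library by 1 factor leaves such shares unchanged. This holds for TPM and median-of-ratios scaling of FPKM, and not for quantile normalization. Traf1 held 28.4% of the summed FPKM of Traf1 to Traf6 in the unstimulated wild-type library and 27.0% in the KO-labelled one. After anti-IgM it held 57.0% ± 1.36 in wild-type and 60.0% ± 0.527 in KO-labelled libraries (SD, n = 4 each). Traf5 went the other way, from 25.0% and 27.4% to 4.57% ± 0.315 and 4.59% ± 0.173 (SD, n = 4 each). The ratio of Traf1 to Traf5 was 1.14 and 0.985 before and lay between 11.4 and 13.7 in the 8 stimulated libraries. The share of Traf6 after anti-IgM was 10.4% to 11.3% in wild type and 8.82% to 9.26% in the KO-labelled libraries. A share also moves with the other members of the sum: Traf2, whose FPKM overlapped between genotypes, had a share of 9.10% to 10.2% in wild type and 8.32% to 8.91% in KO-labelled libraries, where Traf1 held 55.5% to 58.6% and 59.5% to 60.6%. Among the inhibitors, Tnip1 went from 62.2 and 79.9 FPKM per 100 FPKM of Tnfaip3 before stimulation to 8.94 to 11.2 in wild type and 7.93 to 9.12 in the KO-labelled libraries, ranges that overlap. Tnfaip3 and Cyld were near each other before stimulation, with ratios of 1.02 and 1.24, and 11.8 to 14.3 apart after it.

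**Figure D3:**
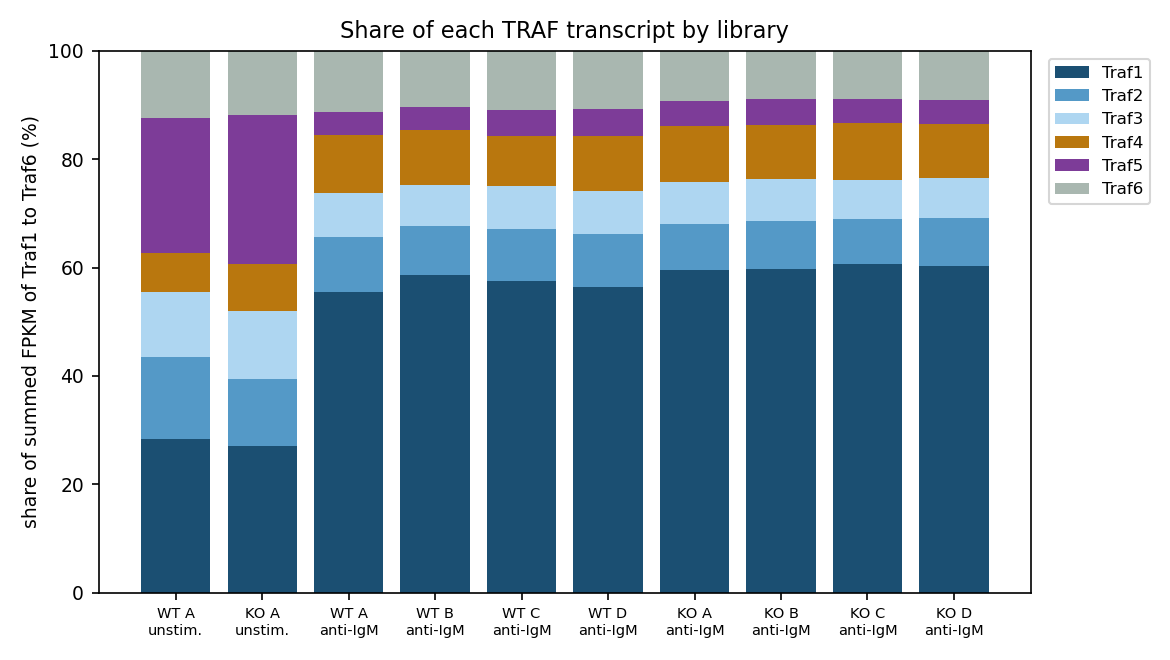
Share of each of the 6 TRAF transcripts in their summed FPKM (vertical axis, percent) in each of the 10 libraries. Traf1 grows from 28.4% and 27.0% in the unstimulated libraries to between 55.5% and 60.6% in the stimulated ones, while Traf5 shrinks from 25.0% and 27.4% to between 4.29% and 4.93%.

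Genotypes were compared with replicates after anti-IgM only, 4 KO-labelled against 4 wild-type libraries, in a limma fit of these 8. Traf1 and Traf4 were called higher in the KO-labelled libraries and none of the 9 genes was called lower, where 3.91% of all genes tested were called higher, 5.81% lower and 9.72% in either direction. At an unadjusted p under 0.05 there were 6 of the 9, and 2262 of 10225 over all genes. The 4 and 4 libraries did not overlap for Traf1, Traf4 and Tnfaip3, higher, and for Traf6, lower, where 15.5% of all genes tested did not overlap (5.96% higher and 9.57% lower). The median log2 difference was 0.081 for the 9 genes and -0.024 for all genes tested.

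Wild-type libraries had 133 ± 6.35 FPKM of Traf1 and KO-labelled ones 155 ± 1.64 FPKM (SD, n = 4 each), 16.4% higher. Its log2 difference was 0.22 (SE 0.0336, limma adjusted p = 0.00312), called in all 18 alternative analyses with an adjusted p of 0.00186 to 0.0131. The level of Traf4 was 23.4 ± 0.916 and 26.3 ± 0.652 FPKM (SD, n = 4 each), 12.5% higher, with a log2 difference of 0.16 (SE 0.0354, limma adjusted p = 0.0190). Its call was lost without KO-labelled library A (adjusted p = 0.0575) and without KO-labelled library C (adjusted p = 0.0521); the range over all 18 alternatives was 0.00697 to 0.0718.

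Tnfaip3 stood at 222 ± 13.9 and 246 ± 6.78 FPKM (SD, n = 4 each), 10.7% higher in the KO-labelled libraries, with a log2 difference of 0.15 (SE 0.0433, 95% interval 0.051 to 0.25). The limma adjusted p of 0.0665 missed the threshold although the libraries did not overlap (two-sided exact permutation p = 0.0286, the smallest that 70 labellings can give). Tnfaip3 was called in 2 of 18 alternatives. These were the fit without wild-type library C, its highest wild-type library (adjusted p = 0.0286), and that with the letter as a block (0.0340). The adjusted p ran from 0.0286 to 0.154 over all 18. Traf6 was lower by a similar margin, -0.11 (SE 0.0335, limma adjusted p = 0.0660), with each KO-labelled library below each wild-type one (two-sided exact permutation p = 0.0286). It was called in none of the 18 alternatives, with a limma adjusted p of 0.0574 to 0.269 and a difference of -0.131 to -0.073.

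Tnip1 was at 23.0, 22.8, 21.3 and 22.3 FPKM in wild-type libraries A to D after anti-IgM, and KO-labelled ones were at 19.98, 21.8, 20.2 and 20.2 FPKM. KO-labelled library B reached into the wild-type range, and the log2 difference of -0.12 (SE 0.0389) had a limma adjusted p of 0.105. Without that library it was -0.14 with an adjusted p of 0.0431. Tnip1 was called in no more than this 1 of 18 alternatives, with an adjusted p of up to 0.223. The remaining genes did not pass. The log2 difference was 0.14 for Traf5 (95% interval 0.0031 to 0.28), 0.081 for Traf3 (-0.0045 to 0.17), 0.071 for Cyld (-0.026 to 0.17) and -0.026 for Traf2 (-0.12 to 0.063), with limma adjusted p of 0.215, 0.252, 0.386 and 0.763. For each of them a difference of up to 0.28 or less lies within the interval, so these data do not show that the levels were alike. The sign of Traf2 was positive after quantile normalization (0.0052) and with median-of-ratios scaling (0.016).

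**Figure D4:**
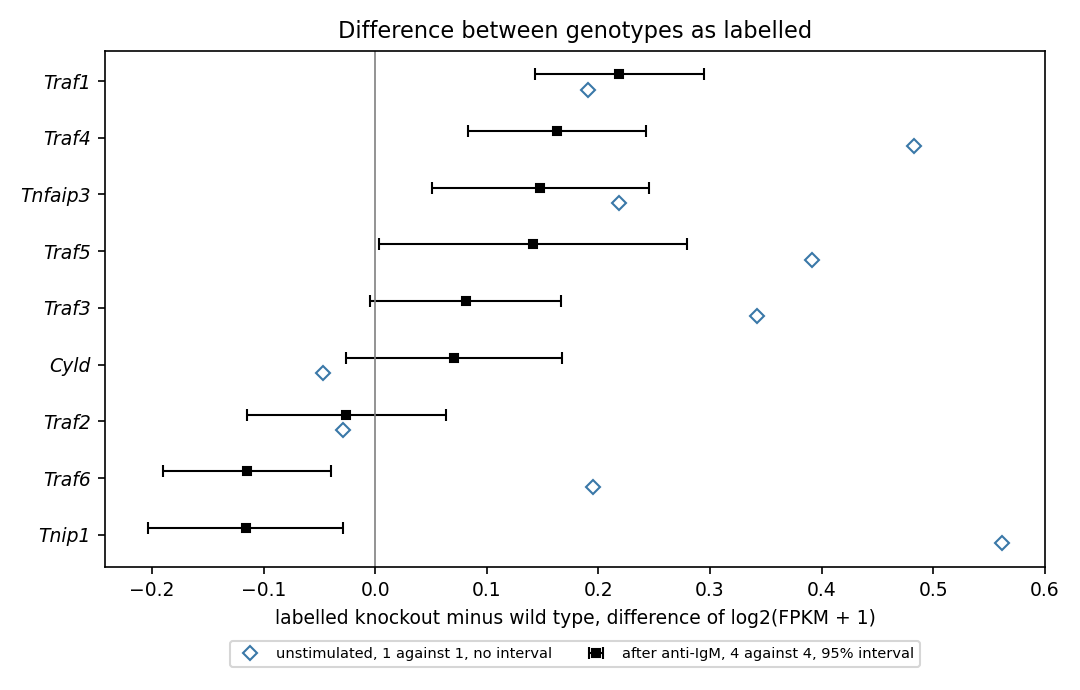
Difference between KO-labelled libraries and wild-type libraries as a difference of log2(FPKM + 1) (horizontal axis) for each gene: black squares with 95% intervals are the 4 against 4 libraries after anti-IgM, open diamonds the 1 against 1 unstimulated libraries. Traf1 (0.22) and Traf4 (0.16) lead after anti-IgM, and Tnip1 and Traf6 have the diamond on the right of 0 and the square on the left.

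Before stimulation each genotype is 1 library, so the values describe those libraries. Of the 9 genes, 7 were higher in the KO-labelled library, with a median log2 difference of 0.22 where that of all genes tested was 0.067 (SD over genes 0.382). By that positive median most genes tested were also higher in this library, and their share was not computed. Tnip1 differed most, with 19.5 FPKM for wild type against 29.3 FPKM for the KO-labelled library, a log2 difference of 0.56 that lay between 0.531 and 0.746 under the other scalings. It was followed by Traf4 (10.6 and 15.2 FPKM, 0.48), Traf5 (36.4 and 48.0 FPKM, 0.39) and Traf3 (17.3 and 22.2 FPKM, 0.34). The differences of Traf1 (0.19), Traf6 (0.20) and Tnfaip3 (0.22) were smaller. Over the other scalings they ran from 0.122 to 0.370 for Traf1, from 0.117 to 0.374 for Traf6, from 0.157 to 0.398 for Tnfaip3 and from 0.289 to 0.523 for Traf3, each highest after rescaling to TPM. Those of Traf2 (-0.028) and Cyld (-0.047) were near 0 and became positive after rescaling to TPM.

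Whether the response to anti-IgM differed between genotypes was fitted as an interaction over the 10 libraries, under the assumption that the lone unstimulated libraries vary like the stimulated ones. Of all genes tested 18.9% were called, 4.18% with a higher and 14.7% with a lower response in the KO-labelled libraries, against 3 of the 9 genes, each with a lower response. Tnip1 went up in wild type, by 0.19 on the log2 scale to 22.3 ± 0.760 FPKM (SD, n = 4), and down in the KO-labelled libraries, by -0.49 to 20.5 ± 0.860 FPKM (SD, n = 4). The interaction was -0.68 (SE 0.0868, limma adjusted p = 0.00241) and was called in all 17 alternatives. That of Traf4, which increased 2.21-fold in wild type and 1.73-fold in the KO-labelled libraries, was -0.32 (SE 0.0808, limma adjusted p = 0.0246). That of Traf6, 1.41-fold and 1.12-fold, was -0.31 (SE 0.0754, limma adjusted p = 0.0213). The calls of Traf4 and Traf6 were both lost with median-of-ratios scaling (adjusted p = 0.0755 and 0.0725), and that of Traf6 also after quantile normalization (adjusted p = 0.0802). For Tnfaip3 the interaction was -0.071 (95% interval -0.29 to 0.15) and for Traf1 0.028 (-0.14 to 0.20), both smaller than their standard errors. Rescaled to TPM, these values were -0.245 for Tnfaip3 (limma adjusted p = 0.0799) and -0.146 for Traf1 (0.148), so the sign of Traf1 turned. The other values were -0.26 for Traf3 (limma adjusted p = 0.0611, and 0.00990 after rescaling to TPM), -0.25 for Traf5 (-0.55 to 0.052), 0.12 for Cyld (-0.096 to 0.33) and 0.0024 for Traf2 (-0.20 to 0.20); those of Cyld and Traf2 were negative on the TPM scale (-0.052 and -0.17). The 3 calls rest on the 1 unstimulated library of each genotype, in which the same genes differed before stimulation.

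Genes whose levels followed the members most closely were ranked by Pearson r of log2(FPKM + 1) over the 10 libraries, among 7210 genes averaging 5 FPKM or more; the 2 unstimulated libraries set most of such a correlation for a gene that responds strongly. Traf1 was followed by Cd5 (r = 0.999), M6pr (0.998) and Gch1 (0.998), and Tnfaip3 by Wdr55, Abcf2 and Ltv1 (r of at least 0.999). Cd5, a surface regulator of antigen receptor signalling, went from 1.07 to 7.17 ± 0.608 FPKM in wild type and from 1.47 to 8.66 ± 0.334 FPKM in KO-labelled libraries (SD, n = 4 each). The closest were Aff1 (0.961), Fbxo42 (0.949) and Gorasp2 (0.914) for Traf3, and Cs (0.973), Zfp362 (0.971) and Dmap1 (0.956) for Tnip1. Zfp362 stood at 9.55 and 15.4 FPKM in the unstimulated libraries of wild type and KO-labelled cells, where Tnip1 stood at 19.5 and 29.3 FPKM. Traf3, Tnip1 and the genes named as closest to them each had their highest level in the unstimulated KO-labelled library. Their correlations may therefore rest largely on that 1 library, and values without it were not computed.

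The rest of the pathway was described through 5 lists. Over all genes tested, 20.3% were called with anti-IgM (7.94% higher, 12.4% lower) and 9.72% between genotypes (3.91% higher, 5.81% lower). Upstream, 7 of 13 TNF receptor family genes reached the mean of 1 FPKM needed for testing. Of these 7, 1 was called higher with anti-IgM and none lower: Tnfrsf1b, the gene of TNF receptor 2, which signals through TRAF2, rose by 1.34 (limma adjusted p = 1.29e-08) from 17.0 and 20.4 FPKM to 50.1 ± 2.42 and 47.3 ± 1.77 FPKM (SD, n = 4 each) in wild type and KO-labelled cells. At an adjusted p under 0.05 without a minimum size, 2 of the 7 were higher and 3 lower. Of all genes tested, 31.2% were higher and 47.7% lower by that rule. Between genotypes, Tnfrsf13c, which encodes the BAFF receptor, was higher in the KO-labelled libraries (237 ± 6.60 and 279 ± 5.94 FPKM, log2 difference 0.23, limma adjusted p = 0.000536), and Cd40 was lower (43.7 ± 2.48 and 33.1 ± 1.16 FPKM, -0.39, limma adjusted p = 0.000445; SD, n = 4 for each mean).

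Of 24 TRAF partners and kinases, all tested, 1 was called higher and 3 lower with anti-IgM, where 7.94% and 12.4% of all genes were. Their median log2 change was -0.19, close to that of all genes. Map3k5, the stress kinase ASK1, rose by 1.09 (limma adjusted p = 9.18e-10), or by 0.947 with a pseudocount of 5, which is under the minimum size. Birc2, which encodes cIAP1, the ubiquitin ligase that TRAF2 brings to receptors, fell from 40.8 and 36.1 FPKM to 18.3 ± 0.890 and 16.1 ± 1.199 FPKM (SD, n = 4 each), a log2 change of -1.12 (limma adjusted p = 2.11e-08) that was -0.974 after rescaling to TPM and -0.888 with median-of-ratios scaling. The other falls were Traf3ip3 (-2.00), named as a TRAF3-interacting protein, and Tifa (-1.56), a TRAF6-binding adaptor, with limma adjusted p of 6.72e-09 and 1.93e-06. Between genotypes 2 of the 24 were called, both higher in the KO-labelled libraries, where 9.72% of all genes were called and 3.91% higher. They were Tank (0.21, limma adjusted p = 0.0215), a TRAF-binding regulator, and Map3k5 (0.19, limma adjusted p = 0.00407). The call of Tank was lost in 6 of 18 alternatives, 4 of which left out 1 library (wild-type A or D, KO-labelled A or D; adjusted p of 0.0555 to 0.0674).

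The 14 partners of A20 and CYLD and other ubiquitin regulators had a median log2 change with anti-IgM of -0.32. Of them, 1 was called lower (12.4% of all genes tested) and none higher (7.94%). It was Trafd1 (-1.01, limma adjusted p = 4.69e-06), and its change was under 1 in size with each of the 3 other scalings (-0.884 to -0.786) and without wild-type library B (-0.982), KO-labelled library D (-0.961) or the unstimulated KO-labelled library (-0.860). Otulin, listed under its older symbol Fam105b, cleaves linear ubiquitin chains and was called lower in the KO-labelled libraries, at 75.3 ± 1.61 and 62.2 ± 1.46 FPKM (SD, n = 4 each; log2 difference -0.27, limma adjusted p = 0.000214). On the route from the antigen receptor to NF-kB, Btk, a kinase close to the receptor, was called lower with anti-IgM (-1.21, limma adjusted p = 3.28e-08). With median-of-ratios scaling its change was under 1 in size, at -0.972. Malt1, the protease that cleaves A20, was higher in the KO-labelled libraries, at 86.2 ± 4.12 and 111.9 ± 4.42 FPKM (SD, n = 4 each; log2 difference 0.37, limma adjusted p = 0.000371), and Btk was lower (-0.17, limma adjusted p = 0.00524).

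The 11 Rel subunits and IkB proteins are the transcription factors at the end of the pathway and their inhibitors. They had the highest median of the 5 lists, a log2 change of 1.45. With anti-IgM 6 were called higher and 1 lower, where 7.94% and 12.4% of all genes tested were. Nfkbid (3.09), Nfkbie (1.93) and Nfkb1 (1.53) rose most, and Bcl3 fell (-1.31), each with a limma adjusted p of at most 1.15e-07. Between genotypes 4 of the 11 were called, all higher in the KO-labelled libraries, where 3.91% of all genes tested were called higher. They were Nfkbid (0.33), Nfkb1 (0.21), Nfkbia (0.14) and Nfkb2 (0.10), with limma adjusted p of 0.00459, 0.00139, 0.0172 and 0.0452. Nfkb2 was named after its value was seen, and its call was not examined in the alternatives. Nfkbia lost its call without wild-type library B (adjusted p = 0.0527) and after quantile normalization (0.129).

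**Figure D5:**
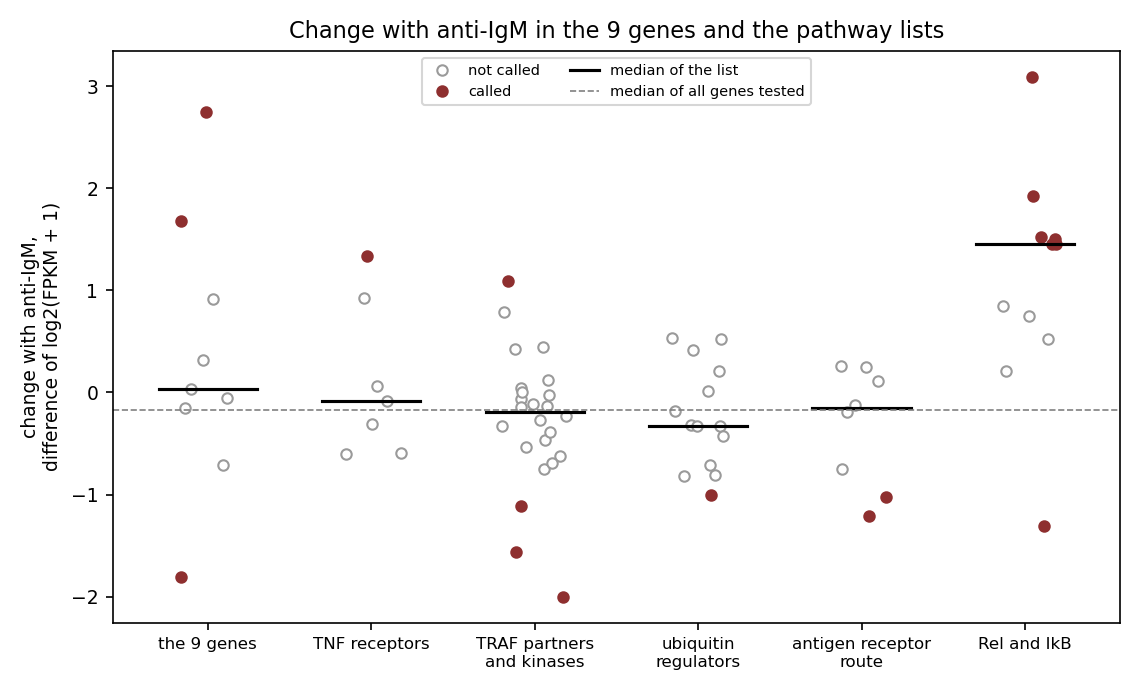
Change with anti-IgM as a difference of log2(FPKM + 1) (vertical axis) for the 9 genes and the tested genes of 5 pathway lists; filled points were called, open points were not, black lines are list medians and the dashed line is the median of all genes tested, -0.17. The list of Rel subunits and IkB proteins has a median of 1.45, and the medians of the other 4 lists lie between -0.32 and -0.080.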

How the data were processed

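RNA of enriched B cells was sequenced in 10 libraries from a stranded mRNA kit, per the labels' protocols. The authors deposited 1 table of FPKM per gene and library; the submitters' processing notes name STAR 2.4, RSEM 1.2.14 and mm10, while annotation, filters and strand setting are not given in the sources used here. FPKM are not counts, so no count model was fitted. Values were taken as log2(FPKM + 1) for the 10225 genes averaging 1 FPKM or more and fitted with limma 3.58.1 in R 4.3.3 (lmFit, eBayes with trend, two-sided, Benjamini-Hochberg adjustment over all genes tested). The fits were tested on simulated data, but the outcome is not given here. Single genes were also compared by an exact permutation test over 70 labellings. The members and lists were chosen with earlier results of these data known. Named genes are the 9 members, Nr4a1, the up to 3 largest called changes each way per list and comparison, and for Traf1, Traf3, Tnfaip3 and Tnip1 the 3 closest genes, leaving out members, genes averaging under 5 FPKM and symbols of the accession, Gm, Rik, Mir or Snor kind. Promoter sequences are from RefSeq (GRCm38.p6). Alternatives covered pseudocounts of 0.1 and 5, the filter, TPM, median-of-ratios and quantile scaling, eBayes without trend, all 10 libraries in the genotype fit, the letter as a block and each library left out. Between replicate libraries at most 0.968% of tested genes had equal values, so none was counted as a duplicate. For the list of genes on the antigen receptor route, not every result is reported here.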

Additional observations from a re-analysis of the deposited data

Results flagged for a closer look

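The response to anti-IgM differed between the genotypes as labelled for 3 of the 9 genes by the interaction term, which rests on 1 unstimulated library per genotype. They were Tnip1 (-0.68), Traf4 (-0.32) and Traf6 (-0.31), each a lower response in the KO-labelled libraries. Of all genes tested 18.9% were called, 14.7% with a lower response. The calls of Traf4 and Traf6 were lost with median-of-ratios scaling. In 80 groups of 4 stimulated libraries (named genes, each genotype on its own), 4 had 1 library far from the other 3. That is about the share that chance gives, 1 in 20. Tnip1 was at 21.8 FPKM in KO-labelled library B against others of 19.98 to 20.2 FPKM. In wild-type library B, Tnfrsf13c was at 227 FPKM against others of 239.7 to 241 FPKM. Map3k5 was at 37.8 FPKM in wild-type library C against others of 35.7 to 36.0 FPKM, and Trafd1 was at 6.10 FPKM in KO-labelled library D against others of 7.8 to 8.1 FPKM. The cause was not tested.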

How the results depend on the processing

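None of the 9 genes changed sign while called in any alternative run. The number of the 9 called higher between genotypes was 2 in the reported analysis and 1 to 3 when 1 stimulated library was left out: 1 without KO-labelled library A or C, 3 without wild-type library C. The number called lower was 0, and 0 to 1 in those fits (1 without KO-labelled library B). Among all genes, 994 were called between genotypes, 2078 with anti-IgM and 1931 for the difference in response. With a pseudocount of 5 the anti-IgM count was 1132. Without a minimum size it was 8069, with 4 of the 9 genes higher and 2 lower. The count for the difference in response became 3562 after rescaling to TPM, and of the 9 genes 1 (Tnip1) was called lower with median-of-ratios scaling. Among all genes called with anti-IgM, 39.1% were higher on deposited FPKM, 49.5% after TPM rescaling, 59.1% by median-of-ratios scaling and 52.0% by quantile normalization. For the genotype comparison these shares were 40.2%, 44.2%, 59.6% and 52.1%, and for the difference in response 22.1%, 4.91%, 34.4% and 42.0%. Stimulated wild-type and KO-labelled libraries of the same letter correlated between -0.122 and 0.0445 in their deviations, so the letter was not taken to pair the genotypes. Whether it ties an unstimulated library to a stimulated one was not tested. With the letter as a replicate block, the genotype count was 740, that for the difference in response was 1238, Traf4 had an adjusted p of 0.0718 and Tnfaip3 of 0.0340 between genotypes, and 1 of the 9 genes, Tnip1, was called for the difference in response. The cause of these changes was not tested. FPKM with 2 decimals carry no read counts, so the counting error of single values is unknown.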
